A study of Arabidopsis thaliana with 12 samples.

Results

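The 10 genes described here encode the beta-glucosidase PYK10, its close relatives BGLU21 and BGLU22, the jacalin-related lectins JAL22, JAL23, JAL30, JAL31 and JAL33, the transcription factor NAI1 and the ER body protein NAI2. They are 10 of the 32548 genes in the deposited expression table of Arabidopsis thaliana, and were picked by name with earlier results from that table already known. Their values in the 4 genotypes are therefore given as a description, with no test. The deposited value of a gene is a read count that the authors had normalized between libraries. The mean over all samples reached 1 for each of the 10, and for 22315 genes altogether.

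RNA was sequenced from 20-day-old plants, labelled as seedlings, that had spent 12 days on MS plates before a move to soil, under 16 h of light and 8 h of dark at 22 °C. There were 4 genotypes with 3 samples each: wild type, the gte4 mutant, the eml1 eml2 double mutant and the gte4 eml1 eml2 triple mutant. GTE4 is a bromodomain protein, and EML1 and EML2 belong to the EMSY-like family; both kinds act on chromatin. The labels used here name neither the alleles nor whether a sample was a single plant or a pool.

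ER bodies are spindle-shaped compartments of the endoplasmic reticulum found in Arabidopsis and its relatives, mostly in roots and in the epidermis of young seedlings. They store beta-glucosidases, of which PYK10 is the main one in roots, and NAI1 and NAI2 are needed for them to form. When tissue is damaged, PYK10 meets jacalin-related lectins of the cytosol and forms large complexes with them and with GDSL lipase-like proteins. It can cleave indole glucosinolates and other glucosides, a step in defence against herbivores and microbes.

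Total normalized counts per sample ran from 31990484 to 34322625, which normalization makes alike and which is not sequencing depth. GTE4 transcript checked the labels: its log2 change against wild type, fitted after 1 was added to each value, was -4.52 in gte4 (limma, adjusted p = 1.74e-10) and -4.23 in the triple mutant (adjusted p = 2.18e-10). EML2 had -2.39 in eml1 eml2 (adjusted p = 3.04e-09) and -4.17 in the triple (4.16e-13), whereas the EML1 value did not pass the test in either (adjusted p = 0.86 and 0.222). A gene-level value cannot show whether an insertion interrupts EML1. The leaf genes RBCS1A, LHCB1.3 and RCA, listed after values had been seen, stood at or above percentile 99.9 of all tested genes per kilobase of exon. Of 29 root markers, 11 were above 0 in every sample, counting values under 0.5 as 0, and RHD6, RSL4 and BRN1, which mark root hairs and the root cap, were at 0 in all 12.

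Most of the 10 members were higher than in wild type in the 2 genotypes with a gte4 mutation. Only for PYK10, JAL22, JAL30 and JAL33 did every sample with a gte4 mutation exceed every sample without one. The most abundant members, PYK10 and JAL30, were about 1.7 times as high in gte4 and in the triple mutant as in wild type, and close to wild type in eml1 eml2. In gte4, 7 of 10 members lay above wild type with no overlap between the groups, where 18.6% of all tested genes did. In eml1 eml2 it was 3 of 10 (18.8% of all tested genes), and in the triple mutant 9 of 10 (21.3%). The median log2 difference of the 10 members was 0.76, 0.23 and 0.80 for gte4, eml1 eml2 and the triple mutant, while that of all tested genes was between -0.00 and 0.01. As the members were picked with these differences known, the counts are no measure of how unusual they are. The plant parts in each sample are not given in the sources used here; in mixed tissue a change in the number of cells of a type and a change in RNA per cell cannot be told apart.

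**Figure D1:**
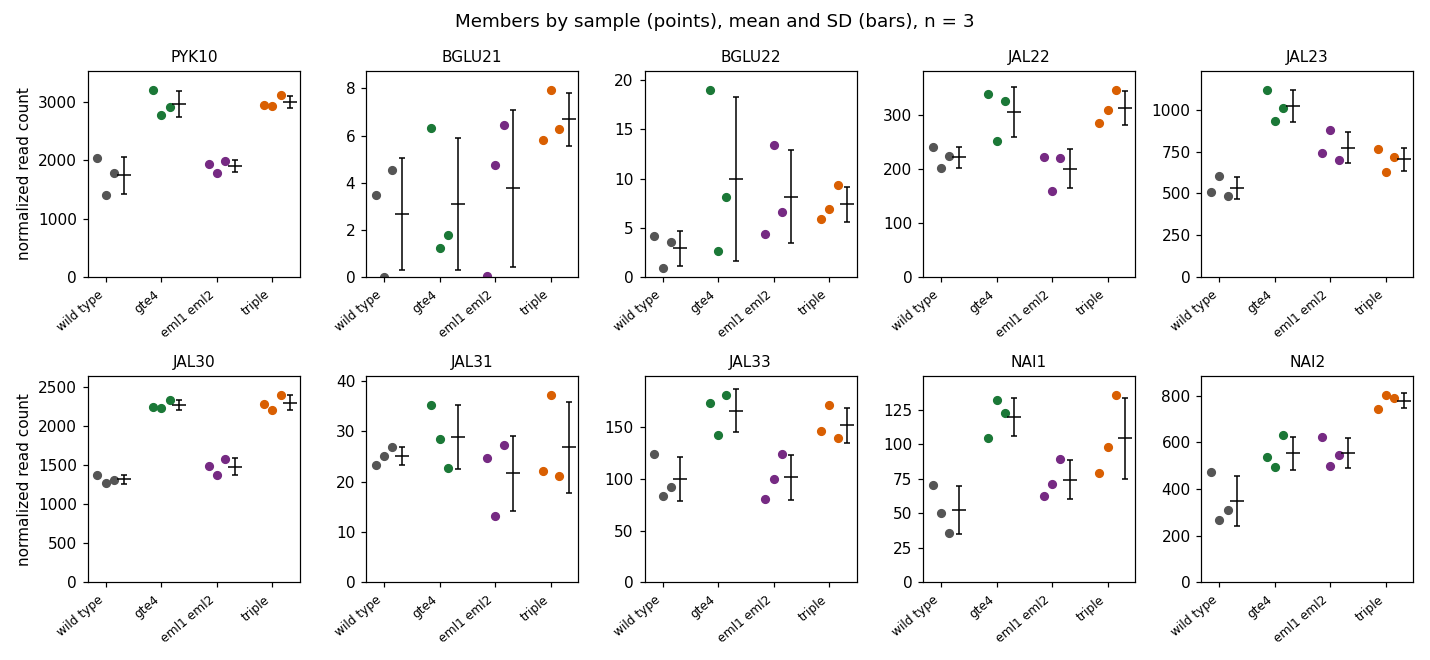
Normalized read count of each of the 10 genes in each of the 12 samples (points, 1 panel per gene, each with its own linear axis from 0), with the mean and SD of the 3 samples of a genotype beside them. PYK10 runs from 1406.4 to 3206.8 and its gte4 and triple mutant samples lie above all samples of the other genotypes, while the JAL31 groups overlap throughout.

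**Figure D2:**
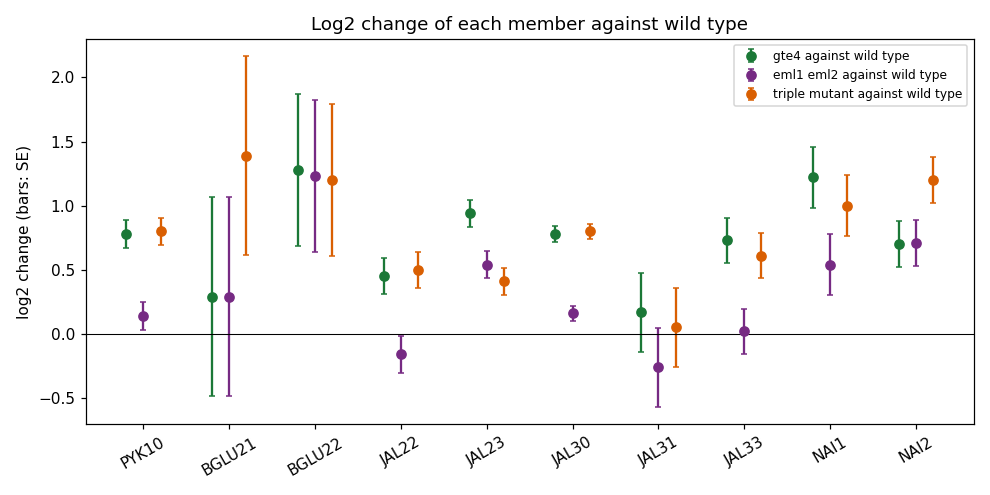
Log2 change of each gene in gte4, eml1 eml2 and the triple mutant against wild type, with its standard error from the limma fit. For PYK10, JAL22, JAL30 and JAL33 the gte4 and triple mutant points lie together and above the eml1 eml2 point, whereas for NAI2 the triple mutant point is the highest, at 1.20.

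Of the enzymes, PYK10 (AT3G09260, chromosome 3) had normalized counts of 2033.3, 1406.4 and 1786.8 in the wild type samples. They were 3206.8, 2774.3 and 2914.9 in gte4 and 1927.7, 1787.2 and 1986.0 in eml1 eml2. In the triple mutant they were 2939.3, 2922.3 and 3117.1. The samples with a gte4 mutation were thus all above the samples without one, and within each of these sets the groups overlapped. The log2 difference from wild type was 0.78 in gte4 and 0.80 in the triple mutant (SE 0.107 each), and 0.14 in eml1 eml2. Wild type replicate 2 was the lowest of the 12, and without it the gte4 difference was 0.63 and that of eml1 eml2 was -0.01. In the annotation 7.64% of the exon bases of PYK10 are shared with AT3G09250, a gene of the NTF2 family. The strand of the reads is not given in the sources used here, and AT3G09250 moved the other way, with log2 changes of -0.19 (limma, adjusted p = 0.0475), -0.23 (0.0201) and -0.39 (0.000326) in gte4, eml1 eml2 and the triple mutant.

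BGLU21 (AT1G66270) and BGLU22 (AT1G66280), PYK10 relatives that also occur in root ER bodies, are neighbours on chromosome 1 and were almost silent. BGLU21 ranged from 0 to 7.951 normalized counts over the 12 samples and BGLU22 from 0.9365 to 19.02. Their wild type means were 2.674 ± 2.38 and 2.919 ± 1.75 (SD, n = 3), too low for a fold change. BGLU22 in eml1 eml2 (4.412, 13.42 and 6.659) and both genes in the triple mutant lay above wild type, so that 3 of the separations counted above rest on values of this size. Reads from such related copies can be divided uncertainly between them.

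The lectin JAL30 (AT3G16420, chromosome 3), also called PYK10-binding protein 1, moved closely with PYK10. Its normalized counts were 1378.5, 1267.5 and 1311.7 in wild type and 1487.7, 1368.6 and 1583.2 in eml1 eml2. They were 2244.1, 2227.9 and 2339.2 in gte4 and 2281.4, 2209.4 and 2400.3 in the triple mutant. The lowest sample with a gte4 mutation, at 2209.4, was well above the highest without one, at 1583.2. The log2 difference from wild type was 0.78 for gte4, 0.16 for eml1 eml2 and 0.80 for the triple mutant (SE 0.0601 each), and the triple mutant differed from gte4 by 0.02. Per kilobase of exon, PYK10 stood at 1.1 ± 0.156 times JAL30 in wild type (SD, n = 3), 1.09 ± 0.0881 for gte4, 1.07 ± 0.0227 for eml1 eml2 and 1.09 ± 0.0147 for the triple mutant, so the enzyme and its lectin kept nearly the same proportion while both levels differed.

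JAL31 (AT3G16430) lies next to JAL30 and resembles it, but stayed low. It ranged from 13.12 to 37.23 normalized counts over the 12 samples, and its groups overlapped in every comparison. Per kilobase of exon JAL30 was 51 ± 5.4 times as high as JAL31 in wild type, 78.8 ± 19.3 for gte4, 71.7 ± 25.1 for eml1 eml2 and 89.1 ± 28 for the triple mutant (SD, n = 3). The lowest triple mutant ratio, 57.3, was at the level of the highest in wild type, 57.2. How reads of related copies such as these were divided is not given in the sources used here.

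JAL33 (AT3G16450), another lectin of the same stretch of chromosome 3, followed PYK10 at a lower level. Its normalized counts were 124.4, 83.91 and 92.64 in wild type and 174, 142.8 and 181.5 in gte4. They were 80.86, 99.64 and 124.6 in eml1 eml2, and 146, 171.4 and 139.3 in the triple mutant. Every sample with a gte4 mutation exceeded every sample without one, with log2 differences from wild type of 0.73 in gte4, 0.02 in eml1 eml2 and 0.61 for the triple mutant (SE 0.177 each).

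JAL22 (AT2G39310) and JAL23 (AT2G39330) lie on chromosome 2 with 1 gene between them, and had different patterns. JAL22 had normalized counts of 239.6, 200.8 and 224.2 in wild type, 337.2, 251.2 and 325.2 for gte4, 220.9, 158.2 and 220.2 for eml1 eml2, and 284.1, 308.5 and 346.2 for the triple mutant. It was higher in both genotypes with a gte4 mutation, by 0.45 in gte4 and 0.50 in the triple mutant on the log2 scale, and differed by -0.16 in eml1 eml2 (SE 0.142 each). JAL23 had 507, 606.9 and 483.6 in wild type and 1120.7, 934.6 and 1008.8 in gte4. It had 742.9, 878.3 and 699.4 in eml1 eml2 and 767.5, 631.2 and 716.7 in the triple mutant. For JAL23 gte4 was thus the highest genotype, eml1 eml2 and the triple mutant overlapped in between, and wild type was the lowest.

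The log2 difference of JAL23 from wild type was 0.94 for gte4, 0.54 for eml1 eml2 and 0.41 for the triple mutant (SE 0.106 each). Among the 10 members JAL23 was the 1 gene that lay lower in the triple mutant than in gte4 without overlap, where 15.5% of all tested genes did, with a log2 difference of -0.53. The triple mutant fell short of the sum of both other mutants by 1.07 on the log2 scale (interaction -1.07, SE 0.15), and leaving out each library in turn gave interactions of -1.17 to -0.98. For the other 4 lectins this interaction lay between -0.15 and 0.21. Per kilobase of exon JAL23 was 2.35 ± 0.494 times JAL22 in wild type, 3.27 ± 0.303 for gte4, 3.89 ± 1.28 for eml1 eml2 and 2.2 ± 0.359 for the triple mutant (SD, n = 3).

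NAI1 (AT2G22770, chromosome 2) encodes the basic helix-loop-helix factor needed for ER body formation and for expression of PYK10, NAI2 and several of the lectins. Its normalized counts were 70.64, 50.21 and 36.05 in wild type and 104.5, 131.6 and 122.7 in gte4. They were 62.5, 71.14 and 89.57 in eml1 eml2, and 78.92, 97.68 and 135.7 in the triple mutant. The gte4 and triple mutant samples lay above wild type, while eml1 eml2 overlapped both wild type and the triple mutant. The log2 difference from wild type was 1.22 for gte4, 0.54 for eml1 eml2 and 1.0 for the triple mutant (SE 0.237 each). Wild type replicate 3 was the lowest sample, and without it these differences were 0.99, 0.30 and 0.76.

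NAI2 (AT3G15950, chromosome 3), an ER body component required for their assembly, was higher in all 3 mutants and highest in the triple mutant. Its normalized counts were 471.9, 267.3 and 308.5 in wild type and 536.4, 493.3 and 629.4 in gte4. They were 624.3, 497.2 and 546.6 in eml1 eml2, and 742, 803.4 and 791 in the triple mutant. The log2 difference from wild type was 0.70 for gte4, 0.71 for eml1 eml2 and 1.20 for the triple mutant (SE 0.18 each). NAI2 was the 1 member that lay higher in the triple mutant than in gte4 without overlap, where 14.3% of all tested genes did, with a log2 difference of 0.50. Its interaction was -0.21 (SE 0.254), and this ran from -0.44 to -0.04 with each library left out in turn. Per kilobase of exon PYK10 was 7.38 ± 1.08 times NAI2 in wild type and 7.8 ± 1.01 in gte4, but 4.96 ± 0.439 in eml1 eml2 and 5.55 ± 0.262 with all 3 genes mutated (SD, n = 3). In each replicate of the genotypes with eml1 eml2 mutations this ratio was below those of wild type and gte4.

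**Figure D3:**
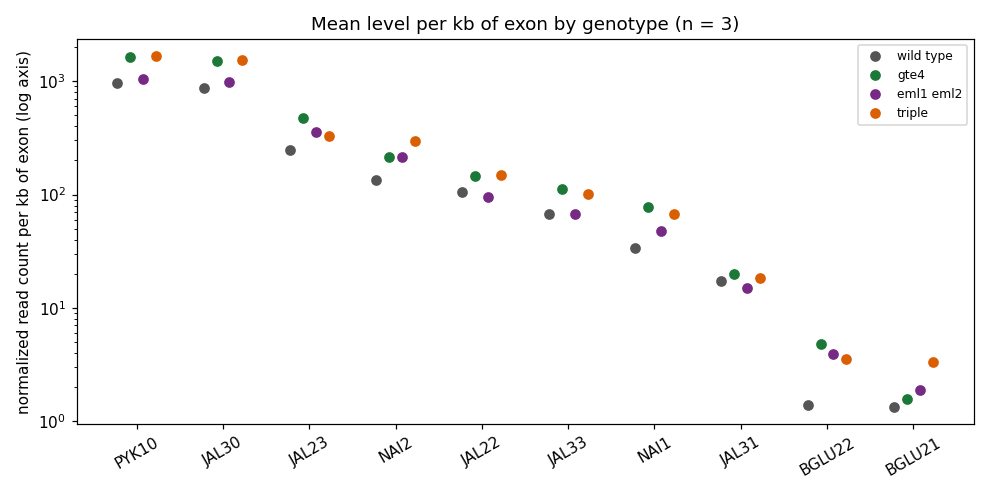
Mean normalized read count per kilobase of exon (log axis) for each gene in each genotype, with genes ordered by their mean over the 12 samples. PYK10 (1329.0) and JAL30 (1224.5) stand far above the other members, and BGLU21 (2.042) is the lowest.

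Per kilobase of exon, the mean level over all samples was 1329.0 normalized counts for PYK10 and 1224.5 for JAL30, at percentiles 89 and 88.2 of all tested genes. JAL23 stood at 351.2, NAI2 at 214.8, JAL22 at 124.5, JAL33 at 86.9 and NAI1 at 56.48. JAL31, BGLU22 and BGLU21 followed at 17.62, 3.412 and 2.042. The catalytic enzyme and its best known lectin were therefore among the better expressed genes of these plants, and the regulator NAI1 was at percentile 30.1.

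Compared directly, 5 of 10 members were higher in the triple mutant than in eml1 eml2 without overlap (7.23% of all tested genes), namely PYK10, JAL22, JAL30, JAL33 and NAI2. In gte4 against eml1 eml2 it was 6 of 10 (14.9%), with JAL23 and NAI1 in place of NAI2. The 2 comparisons share the eml1 eml2 samples. The PYK10 difference was 0.66 in the first and 0.64 in the second on the log2 scale, and that of JAL30 was 0.64 and 0.62.

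Over the 12 samples, pairs among the 7 members with a mean above 50 had Pearson correlations of log2 values between 0.30 and 0.97, with a median of 0.74. Part of this is the difference between genotypes, and all values come from the same libraries. After the mean of each genotype was removed the correlations lay between -0.45 and 0.77, with a median of 0.41. For PYK10 and JAL30 the correlation was 0.966 before this step and 0.622 after it, and for PYK10 and NAI2 it was 0.770 and 0.766. JAL23 was negatively correlated with each of the other 6 within genotypes, and without it the median was 0.53. These are descriptions of 12 libraries.

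The other known genes of ER bodies and the PYK10 complex, 10 genes that are not members, were tested with limma across all 22315 genes, at an adjusted p under 0.05. In gte4 6 of the 10 rose, where 12.1% of all tested genes rose and 13.8% fell. In eml1 eml2 5 rose (11.6% and 12% of all tested genes), and in the triple mutant 6 (15.4% and 18.2%). The others did not pass the test. The median log2 change of the 10 was 0.46, 0.37 and 0.68. The eml1 eml2 count was 3 without wild type replicate 2, wild type replicate 3, eml1 eml2 replicate 1 or eml1 eml2 replicate 2. This list was drawn up with results for the members known.

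**Figure D4:**
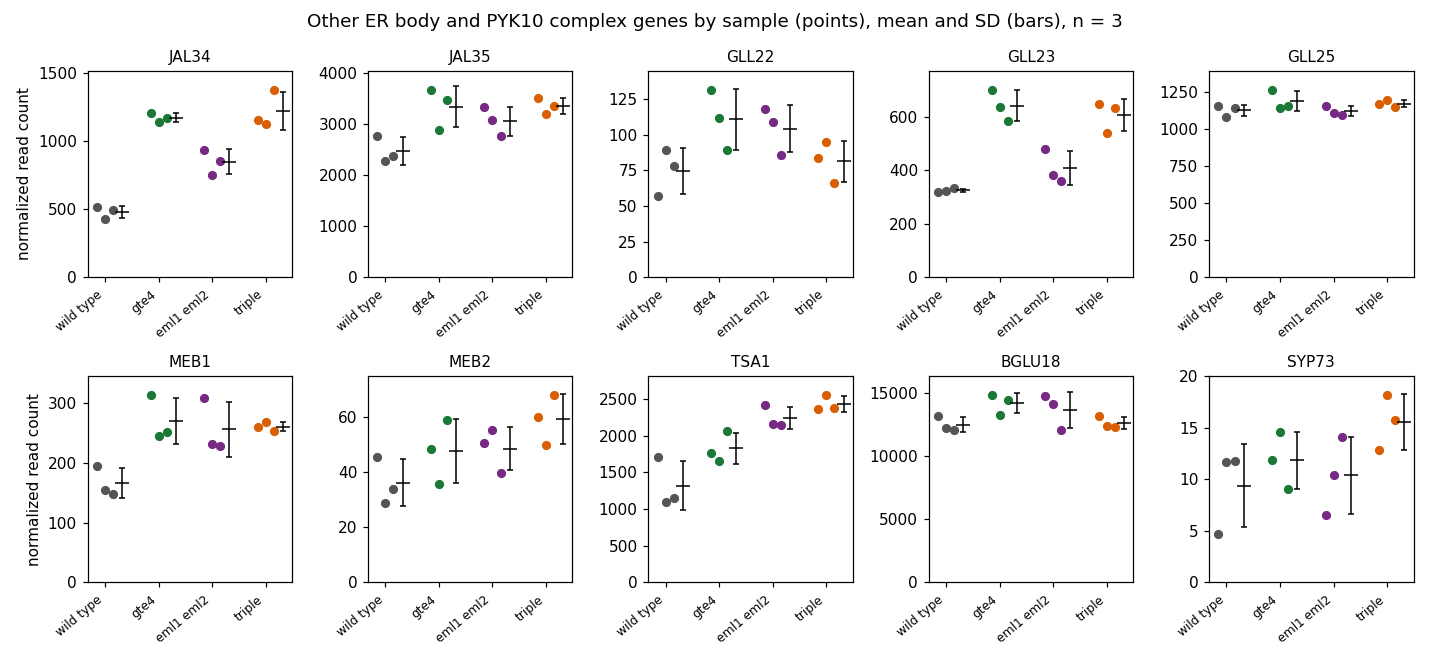
Normalized read count of 10 other ER body and PYK10 complex genes in each of the 12 samples (points, linear axes from 0), with the mean and SD of the 3 samples of a genotype. JAL34 is above wild type in every mutant sample, while GLL25 and BGLU18 stay near their wild type levels.

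JAL34 (AT3G16460), the lectin gene next to JAL33, rose in all 3 mutants. Its normalized counts were 514.7, 428.8 and 493 in wild type, 1207.9, 1139.1 and 1166.3 for gte4, 936.7, 751.5 and 852.6 for eml1 eml2, and 1151.9, 1122.8 and 1376.8 for the triple mutant. The log2 change was 1.29 for gte4 (limma, adjusted p = 2.08e-07), 0.82 for eml1 eml2 (2.07e-05) and 1.34 for the triple mutant (3.9e-08). In contrast to JAL33, the eml1 eml2 samples of JAL34 all lay above wild type. The triple mutant changed by less than the sum of both other mutants (interaction -0.77, limma, adjusted p = 0.00517), a test that 2.94% of all tested genes passed in either direction. In the annotation 20.7% of its exon bases are shared with another gene, as are 23.8% of those of JAL35.

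GLL23 (AT1G54010), a GDSL lipase-like protein of the complex, rose from 324.7 ± 6.77 in wild type to 642.5 ± 58.1 in gte4 and 607.3 ± 58.3 in the triple mutant (SD, n = 3), with log2 changes of 0.98 (limma, adjusted p = 7.61e-06) and 0.90 (8.68e-06). In eml1 eml2 it stood at 407.6 ± 63.3, a log2 change of 0.32 whose adjusted p of 0.0382 (limma) was 0.201 without eml1 eml2 replicate 1 and ranged from 0.0119 to 0.201 over the alternatives. It also missed the threshold without any 1 of the wild type libraries or eml1 eml2 replicate 2, without a filter, and with the 2 genotypes fitted alone. GLL23 was higher in the triple mutant than in eml1 eml2 (0.58, limma, adjusted p = 0.00915), as was JAL34 (0.52, 0.00833), where 0.426% of all tested genes were.

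TSA1 (AT1G52410), which resembles NAI2 and also contributes to ER bodies, had means of 1321.6 ± 335 in wild type, 1831.8 ± 211 for gte4, 2244.4 ± 155 for eml1 eml2 and 2435.5 ± 108 for the triple mutant (SD, n = 3). The rise of 0.79 in eml1 eml2 (limma, adjusted p = 0.00458) and of 0.91 in the triple mutant (0.00123) passed the test. That of 0.49 in gte4 had an adjusted p of 0.038 (limma), 0.14 with the 2 genotypes fitted alone and 2.98e-05 to 0.14 over the alternatives; it was lost without wild type replicate 2 or 3, any gte4 library, eml1 eml2 replicate 2 or 3, or any triple mutant library. As for NAI2, the wild type mean was the lowest and that of the triple mutant the highest. NAI2 was alike in gte4 and eml1 eml2 (log2 difference -0.01, overlapping). TSA1 instead lay lower in gte4 than in eml1 eml2 without overlap (-0.30, limma, adjusted p = 0.231).

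The other genes of this list are named outside the naming rule, after their values were seen. MEB1, a membrane protein of ER bodies, rose by 0.70, 0.62 and 0.66 on the log2 scale in gte4, eml1 eml2 and the triple mutant (limma, adjusted p = 0.00157, 0.00405 and 0.00153), and its relative MEB2 rose by 0.71 in the triple mutant (0.0278, and up to 0.116 without wild type replicate 2 or 3 or triple mutant replicate 1 or 3). JAL35 rose by 0.43, 0.31 and 0.44 (0.00598, 0.0384 and 0.00366), and GLL22 rose by 0.57 in gte4 (0.0466). The JAL35 call in eml1 eml2 was lost without any 1 of 7 libraries, with an adjusted p of up to 0.141 (limma), and that of GLL22 in 9 of 18 alternatives. The remaining 3, GLL25, BGLU18 and SYP73, did not pass. BGLU18, the main beta-glucosidase of wound-induced ER bodies, had log2 changes of 0.18, 0.12 and 0.01, the first of which passed in 7 of 18 alternatives, and GLL25 had 0.08, -0.01 and 0.06.

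Among the other jacalin-related lectins that the annotation names, 18 of 38 genes were expressed enough to test. Of these, 7 rose in gte4 (12.1% of all tested genes), 8 in the triple mutant (15.4%) and 4 in eml1 eml2 (11.6%). JAL34 and JAL35, described above, are among these. The gte4 count was 4 without wild type replicate 2 or 3. AT1G52120 went from 0.4991 ± 0.864 to 5.018 ± 3.76 in gte4 (log2 change 1.98, limma, adjusted p = 0.0212), a low value whose log2 change was 0.81 with a pseudocount of 5. This call was lost without wild type replicate 2 (0.0693) or 3 (0.0693) or gte4 replicate 3 (0.104) and with the 2 genotypes fitted alone (0.0601), with 0.0128 to 0.104 over the alternatives. AT5G49850 rose by 1.44 in gte4 from 2.254 ± 0.954 (SD, n = 3; limma, adjusted p = 0.0493), and this call was lost in 11 of 17 alternatives; with a pseudocount of 5 the change was 0.82.

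Of the 13 related beta-glucosidases, 8 could be tested, and 3 rose in gte4 (12.1% of all tested genes), 4 in the triple mutant (15.4%) and 3 in eml1 eml2 (11.6%). BGLU20, an anther-expressed enzyme, went from 0, 14.53 and 25.74 in the wild type samples to means of 205 ± 17.6, 456.1 ± 75.7 and 120.2 ± 43.4 (SD, n = 3), with log2 changes of 4.78, 5.92 and 3.95 (limma, adjusted p = 0.012, 0.00493 and 0.0211). These sizes rest on wild type replicate 1, at 0: without it they were 3.33, 4.47 and 2.50, and with a pseudocount of 5 they were 3.86, 4.99 and 3.05. Without wild type replicate 3 they were 5.70, 6.84 and 4.87. With the genotypes compared fitted alone the adjusted p values were 0.0922, 0.058 and 0.118, and the triple mutant call was also lost without its replicate 2 (0.0652) or 3 (0.0621). BGLU30, a senescence- and dark-induced enzyme, rose in the triple mutant from 5.374 ± 4.92 to 50.24 ± 27.2 (3.09, limma, adjusted p = 0.00866), by 2.36 with a pseudocount of 5 and 3.68 without wild type replicate 3. BGLU28, induced by sulphur shortage, rose in eml1 eml2 (0.86, limma, adjusted p = 0.0202, but 0.0597, 0.0504 and 0.0766 without wild type replicate 1, wild type replicate 3 or eml1 eml2 replicate 2) and in the triple mutant (0.93, 0.00958). BGLU25, named outside the rule, rose in all 3 mutants, from 694.5 ± 49.7 to 1070.4 ± 25.2 for gte4, 973.3 ± 34.2 for eml1 eml2 and 986.4 ± 75.9 for the triple mutant (SD, n = 3). Its log2 changes were 0.63, 0.49 and 0.51 (limma, adjusted p = 1.12e-05, 0.000147 and 4.32e-05). PEN2, also outside the rule and an atypical myrosinase of pathogen defence, had log2 changes of 0.10, 0.08 and 0.14, none past the threshold (limma, adjusted p = 0.237, 0.375 and 0.0658). The last passed in 4 of 18 alternatives.

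Myrosinases and specifier proteins act on and steer glucosinolate breakdown, and 10 of 12 were tested. They included 2 rises and 1 fall for gte4 (12.1% and 13.8% of all tested genes). For eml1 eml2 it was 1 and 3 (11.6% and 12%), and for the triple mutant 2 and 1 (15.4% and 18.2%). Apart from the falls in eml1 eml2, these counts were near the shares of all tested genes. ESP, which directs breakdown to nitriles, rose from 1821.5 ± 153 to 3301.9 ± 227 for gte4 (0.86, limma, adjusted p = 6.26e-06), 2375.9 ± 187 for eml1 eml2 (0.38, 0.00428) and 2853.5 ± 294 for the triple mutant (0.65, 4.03e-05). NSP1, a nitrile specifier, rose from 2107.1 ± 81.6 to 3291.9 ± 193 in gte4 and 3251.3 ± 114 in the triple mutant (0.64 and 0.63, limma, adjusted p = 2.02e-06 and 1.06e-06). In eml1 eml2 its adjusted p was 0.0574, and 0.0342 with a replicate block. ESM1, known to favour isothiocyanates over nitriles, fell in all 3 mutants, from 45030.0 ± 2747.6 to 33071.9 ± 1544.9, 34667.1 ± 1840.3 and 28889.4 ± 3089.3 (SD, n = 3), with log2 changes of -0.44, -0.38 and -0.64 (limma, adjusted p = 0.000291, 0.00118 and 4.86e-06). The main myrosinases TGG1 and TGG2 had log2 changes between -0.03 and 0.28 and did not pass.

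The genes of indole glucosinolate synthesis, which makes substrates of PYK10, were tested for 17 of 19. In gte4 7 rose (12.1% of all tested genes), but the count was 3 without wild type replicate 1, 2 without wild type replicate 3, 2 without gte4 replicate 1 and 4 without gte4 replicate 2. In eml1 eml2 1 fell (12% of all tested genes), and in the triple mutant 2 rose and 1 fell (15.4% and 18.2%). IGMT1, an indole glucosinolate methyltransferase, rose from 89.01 ± 4.96 to 172.1 ± 18.9 in gte4 and 158.4 ± 40.8 in the triple mutant (0.94 and 0.79, limma, adjusted p = 0.0016 and 0.00352). IGMT2 rose in gte4 (0.70, limma, adjusted p = 0.0361), a call lost without any 1 of the wild type replicates 1 and 3 and the gte4 replicates, and with the 2 genotypes fitted alone, with an adjusted p of up to 0.136. CYP81F3 rose in the triple mutant (0.55, limma, adjusted p = 0.0248), a call lost without wild type replicate 2 (0.109) or 3 (0.0552) or triple mutant replicate 1 (0.106) or 2 (0.0777).

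Of 16 genes for ER chaperones and ER shape, 6 rose in gte4 (12.1% of all tested genes), 6 in the triple mutant (15.4%) and 3 in eml1 eml2 (11.6%). The gte4 count was 3 without wild type replicate 2 or gte4 replicate 1, the eml1 eml2 count was 5 without wild type replicate 1, and that of the triple mutant was 3 without wild type replicate 2, wild type replicate 3 or triple mutant replicate 1. CRT1, a calreticulin, rose by 0.24, 0.24 and 0.33 on the log2 scale (limma, adjusted p = 0.0011, 0.00122 and 3.14e-05). ERDJ3A, an ER co-chaperone, rose by 0.67 in gte4 (limma, adjusted p = 0.0176, but 0.0757 and 0.0794 without wild type replicate 2 or 3) and 0.86 in the triple mutant (0.00262). GNL1, needed for normal ER shape, rose by 0.25 in the triple mutant (limma, adjusted p = 0.0186, but 0.0986, 0.0792 and 0.0902 without wild type replicate 2, wild type replicate 3 or triple mutant replicate 1).

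The bHLH relatives of NAI1 and jasmonate regulators, 8 genes, included 4 that could be tested. JAZ10, a repressor of jasmonate responses, rose by 0.47 in gte4 (limma, adjusted p = 0.0301), a call lost without wild type replicate 3 (0.134), gte4 replicate 1 (0.104) or gte4 replicate 2 (0.0594), and with the 2 genotypes fitted alone (0.0671). MYC3 and MYC4, bHLH activators of jasmonate responses, had log2 changes between -0.10 and 0.11, none past the threshold.

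The nearest annotated genes on either side of the members, by order of start position, were 15 non-members, of which 8 could be tested. In gte4 1 rose and 1 fell (12.1% and 13.8% of all tested genes). For eml1 eml2 it was 1 and 1 (11.6% and 12%), and for the triple mutant 2 and 1 (15.4% and 18.2%). AT3G09250, which shares exon bases with PYK10 and fell in all 3 mutants, is not among these neighbours. The rise in gte4 and in eml1 eml2 was that of JAL34, which is also counted in the ER body and jacalin lists. In the triple mutant JAL34 rose again, SAC3A rose by 0.26 (limma, adjusted p = 0.00849) and PMDH1 fell by 0.22 (0.00838, and 0.051 without triple mutant replicate 2). AT2G39300, beside JAL22, fell by 0.92 in gte4 (limma, adjusted p = 0.000973), where JAL22 was higher. NSP4, beside JAL30, fell by 0.58 in eml1 eml2 (limma, adjusted p = 0.00903, and 0.0547 without eml1 eml2 replicate 2) and had log2 changes of -0.13 in gte4 and 0.06 in the triple mutant.

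The genes whose log2 values followed the mean of the members' standardized log2 values most closely over the 12 samples were AT3G32980, a peroxidase (Pearson r 0.948), AT3G11150, a 2-oxoglutarate-dependent oxygenase (0.933), AT2G37750 (0.932), AT5G53880 (0.927) and ATSDI1 (0.927), a gene known to respond to sulphur shortage. AT3G32980 had means of 403.4 in wild type, 731 for gte4, 487.4 for eml1 eml2 and 723 for the triple mutant, so it too was higher in the genotypes with a gte4 mutation, by which it was chosen. ATSDI1 had 21.04, 48.87, 32.89 and 54.

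Markers of other tissues were set beside these values because ER bodies are most abundant in roots. The summed normalized counts of the 29 root markers were 886.5 to 955.4 in wild type, 832.5 to 928.6 in gte4, 907.6 to 1038.1 in eml1 eml2 and 945.7 to 1009.6 in the triple mutant, and each mutant overlapped wild type. Most of this sum came from PHO1 (mean 517.7 over all samples) and AKT1 (184.8), so it mainly follows these 2 genes. From wild type to gte4 the PHO1 mean went from 534.7 to 464.3 and that of AKT1 from 158.3 to 191.1. The sum is therefore no measure of the share of root tissue. Of the 17 root markers that could be tested, 1 rose and 1 fell in gte4 (12.1% and 13.8% of all tested genes). In eml1 eml2 2 rose and 1 fell (11.6% and 12%), and in the triple mutant 2 rose (15.4%). IRT1, an iron transporter of the root, was listed at 0 in wild type and at 7.682 ± 6.33 in gte4, and CASP1, of the endodermis, fell from 11.71 ± 3.35 to 3.805 ± 0.648 in gte4 and 4.451 ± 1.88 in eml1 eml2. AHA7 rose in eml1 eml2, from 30.7 ± 1.63 to 51.77 ± 2.12 (SD, n = 3). The adjusted p values from limma were 0.00487 for IRT1 in gte4, 0.0259 and 0.0428 for CASP1 and 0.0349 for AHA7. The CASP1 call in gte4 was lost without wild type replicate 1 or 2 or gte4 replicate 1 or 3, up to 0.0899, and that in eml1 eml2 in 7 of 17 alternatives. The AHA7 call was lost without any 1 of the wild type and eml1 eml2 libraries, up to 0.0994.

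The summed flower markers were higher in every mutant: 476.4 to 664.6 in wild type, 893.1 to 961.6 in gte4, 1059.9 to 1492.1 in eml1 eml2 and 940.0 to 1215.6 in the triple mutant. Of these 7 markers 5 rose in gte4 (12.1% of all tested genes), 5 in the triple mutant (15.4%) and 7 in eml1 eml2 (11.6%), and all 7 were above 0 in all 12 samples. Their part in the differences of the ER body genes was not tested. Of 8 seed storage genes 4 were at 0 in all samples, and the sum did not exceed 7.78.

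**Figure D5:**
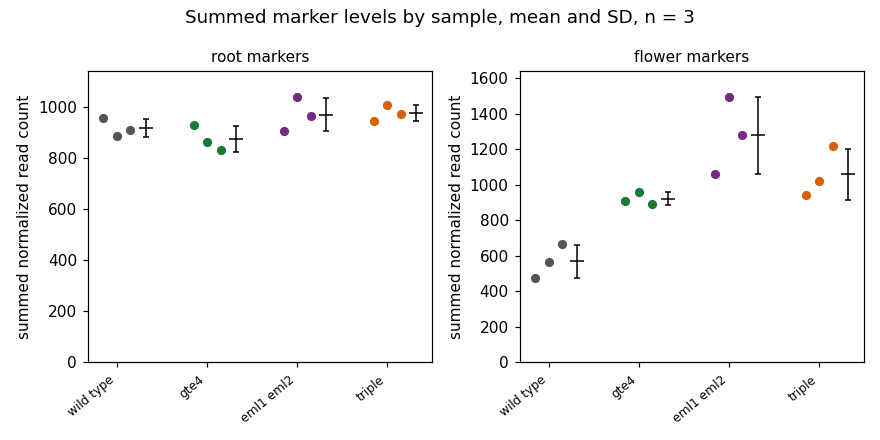
Summed normalized read count of 29 root markers (left) and 7 flower markers (right) in each sample (points, linear axes from 0), with the mean and SD of the 3 samples of a genotype. Root sums, most of which come from PHO1 and AKT1, overlap wild type in every mutant. Flower sums of every mutant lie above wild type, whose highest sample is at 664.6.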

How the data were processed

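Per the submitters' processing notes, bcl2fastq, HISAT2, edgeR and TAIR10 were used, with no versions, and the labels describe 150-bp paired-end reads. The deposited signal values of the authors are read-count-like, normalized and not whole numbers; whole reads could not be recovered, so a planned count test was replaced. Values were log2 transformed after adding 1, genes with a mean of at least 1 were kept, and limma 3.58.1 (R 4.3.3) fitted 4 genotype means to 12 samples using its trend and robust options. Calls were made at a Benjamini-Hochberg adjusted p under 0.05, separately for each comparison. An exact permutation test of 3 against 3 samples cannot go below 0.1. The limma script was tested on simulated data. Tables were made in Python 3.11.15 with pandas 2.3.3. The interaction is the triple mutant's log2 change less the sum of those of gte4 and eml1 eml2.

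All p-values measure the spread between samples, which may be technical, because the labels used here do not say what the replicates are. Normalized totals were 31990484 to 34322625 per sample; normalization makes these alike, and the sequencing depth of each library is unknown.

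Same-numbered samples deviated together, over genes with a mean of at least 50, for wild type and gte4 (r 0.262 to 0.506), wild type and eml1 eml2 (0.121 to 0.576), gte4 and eml1 eml2 (0.177 to 0.624) and eml1 eml2 and the triple mutant (0.131 to 0.595). Wild type with the triple mutant had 0.376 and 0.534 for replicates 1 and 3, and gte4 with the triple mutant had 0.499 and 0.462. Replicate 2 lacked this link in both, at -0.124 and -0.075. For replicate 2 it was also weak between wild type and eml1 eml2 (0.121), gte4 and eml1 eml2 (0.177), and eml1 eml2 and the triple mutant (0.131). Differently numbered samples reached 0.217, for gte4 replicate 1 with eml1 eml2 replicate 2. The pairing is thus taken from the data, and the unblocked fit is the main one.

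The members and lists were chosen with earlier results of these data known. The named genes are the members, up to 3 called and non-overlapping genes of each list by largest log2 change, the 5 most correlated genes, the neighbouring genes, and GTE4, EML1 and EML2. MEB1, MEB2, JAL35, GLL22, GLL25, BGLU18, SYP73, BGLU25, PEN2, TGG1, TGG2, MYC3 and MYC4 are named outside this rule, after their values were seen. Lists share genes: JAL34 and JAL35 are in the ER body and jacalin lists, BGLU18 in the ER body and beta-glucosidase lists, PEN2 in the beta-glucosidase and myrosinase lists, and JAL34, NSP4 and BHLH019 also among the neighbours. Names, exon lengths and neighbours come from RefSeq TAIR10.1, which held 32548 of the 32548 gene IDs. No coordinates or sequences are given because the deposited values name TAIR10. Alternatives were a pseudocount of 5, no filter, a minimum mean of 10, median-of-ratios scaling, a replicate block, fitting the compared genotypes alone, and leaving out each library.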

Additional observations from a re-analysis of the deposited data

Results flagged for a closer look

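Among the genes named from the lists, leaving out the mutated genes themselves, 6 were called by limma's interaction test across all genes. Their triple mutant change differed from the sum of the gte4 and eml1 eml2 changes. Of all tested genes 2.94% were called. JAL34 had an interaction of -0.77 on the log2 scale (limma, adjusted p = 0.00517), that is, the triple mutant rose by less than both changes added. BGLU25, named outside the rule, had -0.61 (limma, adjusted p = 0.00374). ESP had -0.60 (limma, adjusted p = 0.0163) and JAZ10 had -0.89 (0.032). The flower markers SEP3 and PI had -1.54 (limma, adjusted p = 0.00114) and -1.39 (0.0257). Each of these 6 genes was higher in gte4 and in eml1 eml2 than in wild type, by group means. Of the 3 mutated genes, 1 was also called in this test, with a negative interaction.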

How the results depend on the processing

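Over the alternatives, the log2 changes of the 10 members moved by less than 1 SD between replicates in each of 1236 cases. Leaving out 1 of 3 samples can hardly move a mean by more than that, so this limit says little. Some changes turned sign, as for BGLU21 in gte4, from 0.29 to -0.48 without wild type replicate 2. JAL31 went from -0.26 to 0.05 in eml1 eml2 and from 0.05 to -0.21 in the triple mutant, each without replicate 2 of that mutant. Of the log2 changes of other named genes 2311 kept their direction and their side of the threshold, 136 lost the call and 22 gained one; no called direction reversed. The counts of called genes over all genes were 4272 to 5792 in gte4, 3755 to 5503 in eml1 eml2 and 6071 to 7673 in the triple mutant when each library was left out in turn, against 5780, 5271 and 7495 with all libraries. The interaction count of 655 ranged from 260 to 701, and the cause was not tested. It was 425 without wild type replicate 3, 286 and 319 without gte4 replicate 1 and 2, 353 and 260 without eml1 eml2 replicate 1 and 2, and 380, 389 and 359 without triple mutant replicate 1, 2 and 3. With a replicate block it was 1269; the block also made 5 rather than 3 myrosinase and specifier genes pass in the triple mutant. The block gave 6963, 6587 and 8764 called genes in the 3 comparisons with wild type. Median-of-ratios scaling turned the split of 2693 higher and 3087 lower genes in gte4 into 2913 and 2843, and that of 3435 and 4060 in the triple mutant into 3807 and 3726. Values of a lowly expressed gene such as BGLU21 are limited by depth, which is unknown.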
